A study of Mus musculus with 4 samples.

Results

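The genes described here are the 8 mouse genes *Mos*, *Map2k1*, *Map2k2*, *Mapk3*, *Rps6ka1*, *Rps6ka3*, *Fbxo5* and *Fbxo43*, taken by name from a table of 21957 genes. They encode the MOS kinase cascade and the F-box proteins EMI2 and EMI1. MOS and EMI2 act in the hold of a mature oocyte at metaphase II. All 8 were found in the table, and all 8 belonged to the 10898 genes with at least 1 FPKM (fragments mapped to a gene, scaled to transcript length and to library size) in any library.

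There were 4 libraries, 1 for each group. The oocytes came from female B6D2F1 hybrid mice (C57BL/6 x DBA) aged 6 to 8 weeks, and all were fully grown germinal vesicle (GV) oocytes stripped of cumulus cells, from females primed with PMSG, and were held in M16 medium. GV oocytes were taken at 0 h of culture without treatment. MII oocytes were cultured for 12 h without treatment and were kept only if they had extruded a polar body. TubA-10 and TubA-20 oocytes were cultured for the same 12 h with 10 or 20 μM tubastatin A (TubA), a small molecule made to inhibit the deacetylase HDAC6. No such selection is described for them and the labels do not give the stage they had reached. The paper reports that oocytes given TubA lost the germinal vesicle on time. Elsewhere it states that oocytes given 20 μM did not move on from that step to metaphase I or the first anaphase and telophase. Its accounts of the stage reached thus differ. It also reports that the higher dose inhibited the passage from metaphase I to metaphase II, whereas the MII oocytes had completed it. Meiotic stage and drug therefore cannot be told apart here. TubA was dissolved in DMSO, and the MII group is described as non-treated, not as given the solvent DMSO alone. The doses used here, 10 and 20 μM, are those in the sample titles, whereas the treatment field of the same samples reads 20 and 11 μM. Each library was made from pooled oocytes according to the methods of the study, although the series title speaks of single cells.

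With 1 library per group, a difference between libraries could not be compared with the spread between replicates, so no p-value is given and the orders of levels below are descriptions. A gene was called higher or lower when the ratio of FPKM + 1 passed 2-fold, that is, a log2 change beyond 1 or −1. FPKM is a share of the library. A rise in FPKM and a loss of other mRNAs cannot be told apart here, nor can fewer contributing oocytes and less mRNA per oocyte. The 10 oocyte markers were all listed in every library, at 12.4 FPKM or more. Of the 10 cumulus and granulosa cell markers, *Foxl2* was at 0 in all 4 libraries and 3 reached 1 FPKM in any library, with a summed level of 16.0 FPKM for GV, 10.7 for MII, 14.0 for TubA-20 and 8.82 for TubA-10. Most of it was *Cyp19a1* in MII, TubA-10 and TubA-20, while in GV *Inha* was at 7.50 FPKM and *Cyp19a1* at 6.14. The part of these cells in the results was not tested. Of 6 blood cell markers, 4 were at 0 everywhere. *Cd68* lay between 1.63 and 2.26 FPKM, and *Ptprc* was above 0 only in TubA-10, at 0.0089 FPKM.

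MOS is a kinase that the oocyte makes from stored maternal mRNA once meiosis resumes. It phosphorylates the kinases MEK1 and MEK2 (*Map2k1*, *Map2k2*), which activate the MAP kinase ERK1 (*Mapk3*), and this in turn activates the RSK kinases (*Rps6ka1*, *Rps6ka3*). EMI2 (*Fbxo43*) blocks the anaphase-promoting complex, which keeps cyclin B and securin from being destroyed until sperm entry raises calcium. EMI1 (*Fbxo5*) is its relative and acts on the same complex earlier in meiosis.

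Maternal mRNAs are stored with short poly(A) tails, and a cytoplasmic polyadenylation element (CPE) together with a polyadenylation hexamer directs tail growth when translation begins. The libraries were selected with oligo(dT), so a change in tail length and a change in mRNA amount cannot be told apart in FPKM. The 3′ ends of the members are therefore shown here. The principal transcripts of the GENCODE M21 annotation on GRCm38 were searched on the transcript strand for the CPE as TTTTAT or TTTTAAT and for the hexamer as AATAAA or ATTAAA. In the last 100 bases of the 3′ UTR, a CPE was found in 1 of the 8 members, *Fbxo5*, against 20.2% of 10113 genes with at least 1 FPKM and a 3′ UTR of that length. A hexamer was found there in 6 of the 8, all except *Map2k2* and *Mapk3*, against 81.5% of those genes. *Fbxo43* held 6 CPEs in a 3′ UTR of 1584 bases, the nearest starting 103 bases from the end, *Rps6ka3* held 7 in 4759 bases, and *Map2k1* and *Fbxo5* held 2 each. *Mos* has a single exon and a 3′ UTR of 126 bases, in which neither spelling of the CPE was found. Other spellings were not searched, so this does not show that *Mos* lacks a CPE. Whether these elements bear on the levels below was not tested.

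The following stretches of 30 bases show the ends of the *Mos*, *Map2k1*, *Fbxo5* and *Fbxo43* transcripts, with the hexamer in capitals. They lie on the minus strand of GRCm38 at chr4:3870657-3870686 (*Mos*), chr9:64185770-64185799 (*Map2k1*), chr10:5799160-5799189 (*Fbxo5*) and chr15:36150060-36150089 (*Fbxo43*).
Mos: ttttaggaAATAAAgttaccacgaacttca
Map2k1: tcaagttaaAATAAAagggacaagagattt
Fbxo5: tttgtttagttaaAATAAAtttagaggtgt
Fbxo43: aataATTAAAtttaaaatttacatattttc

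The CPE nearest to the end in the Emi transcripts is shown in capitals in the next stretches, at chr10:5799226-5799255 (*Fbxo5*) and chr15:36150145-36150174 (*Fbxo43*), again on the minus strand.
Fbxo5: aatgtgagttttTTTTATatctgtgaatac
Fbxo43: gtatatatgtgtTTTTATactatacacaca

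Positions are those of the principal transcripts on GRCm38. *Mos* (chromosome 4, 3870657 to 3872105) was the most abundant member in every library. Its level was 635 FPKM for GV, 726 for MII, 1041 for TubA-20 and 571 for TubA-10. TubA-20 was thus the highest library and TubA-10 the lowest, with a 1.82-fold range. In TubA-20 it ranked 74th of the 10898 genes, and in GV 175th.

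The kinase genes below *Mos* did not move together. *Map2k1* (chromosome 9, 64185770 to 64253631) was at 77.5 FPKM for GV, 150 for MII, 215 for TubA-20 and 131 for TubA-10. Its lowest level was in GV and its highest in TubA-20, a 2.78-fold range and the widest of the 8 genes. *Map2k2* (chromosome 10, 81105915 to 81124697) was at 39.2 FPKM for GV, 35.6 for MII, 29.8 for TubA-20 and 50.0 for TubA-10. For this gene TubA-10 was the highest library and TubA-20 the lowest.

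*Mapk3* (chromosome 7, 126759601 to 126765819) was at 130 FPKM for GV, 175 for MII, 123 for TubA-20 and 210 for TubA-10. As for *Map2k2*, TubA-10 was highest and TubA-20 lowest. The RSK genes were the lowest members in every library. *Rps6ka1* (chromosome 4, 133847290 to 133887797) was nearly level, between 7.78 FPKM for TubA-10 and 8.83 for MII, a 1.14-fold range. *Rps6ka3* (X chromosome, 159255858 to 159368244) lay between 6.15 for MII and 8.82 for TubA-20, a 1.43-fold range.

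Of the Emi genes, *Fbxo5* (chromosome 10, 5799160 to 5805600) was at 101 FPKM for GV, 124 for MII, 109 for TubA-20 and 157 for TubA-10. *Fbxo43* (chromosome 15, 36150060 to 36164884) was at 16.9 FPKM for GV, 38.9 for MII, 34.3 for TubA-20 and 30.2 for TubA-10. *Fbxo5* was above *Fbxo43* in each library on this per-length scale. As deposited, the 3 cultured libraries were above GV for both genes, and only the difference of *Fbxo5* in TubA-20 turned under another scaling.

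**Figure D1:**
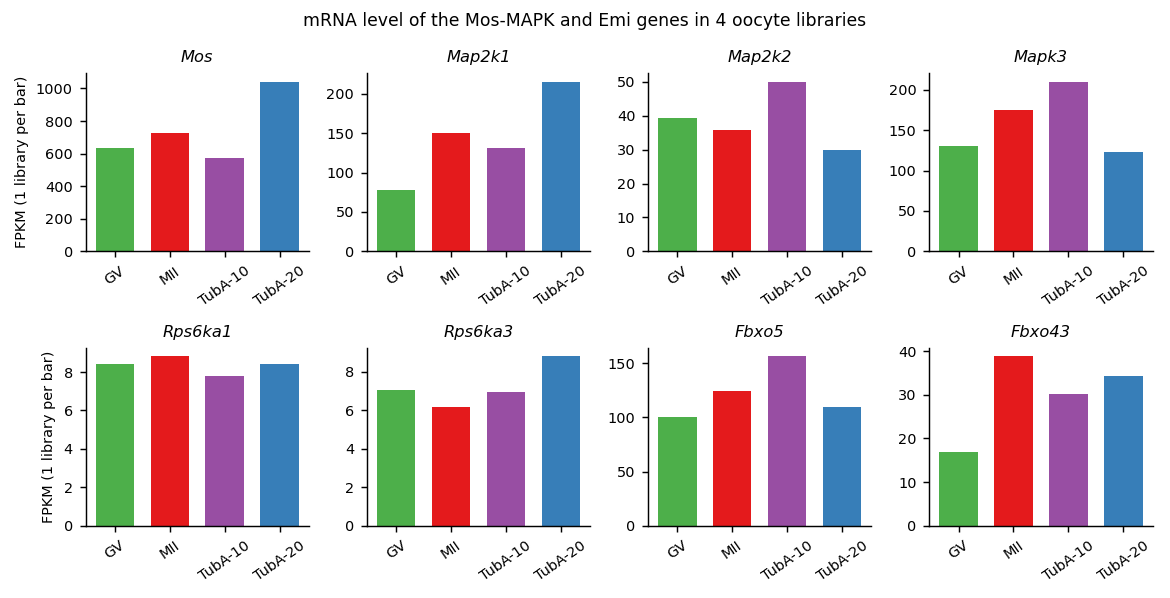
FPKM (vertical axes, each starting at 0) of the 8 genes in the GV, MII, TubA-10 and TubA-20 libraries, 1 bar per library and no error bar since there is 1 library per group. *Mos* and *Map2k1* are highest in TubA-20 (1041 and 215 FPKM), while *Map2k2*, *Mapk3* and *Fbxo5* are highest in TubA-10.

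The change during maturation without drug was taken from the MII/GV pair of libraries. *Fbxo43* was called higher, with a log2 change of 1.15, and it was the 1 member of 8 to be called, while 6.14% of all 10898 genes were higher past 2-fold. No member was lower past 2-fold, against 16.8% of all genes. *Map2k1* came close to the threshold at 0.95, followed by *Mapk3* (0.43), *Fbxo5* (0.30) and *Mos* (0.19). *Rps6ka1* was at 0.06, *Map2k2* at −0.14 and *Rps6ka3* at −0.17, and each of these 3 changed sign under another scaling of the libraries. The median log2 change was 0.25 over the members and 0.04 over all genes.

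In the TubA-20/GV pair, *Map2k1* was called higher at 1.46 and was the only member called, beside 15.3% of all genes higher and 23.6% lower. *Fbxo43*, at 0.98, lay just below the threshold and passed it narrowly with 4 of the alternatives, at 1.04 or less. *Mos* was at 0.71 and *Rps6ka3* at 0.29. *Map2k2* was at −0.39 and *Mapk3* at −0.08, and neither changed sign under another scaling or pseudocount. *Fbxo5* (0.12) and *Rps6ka1* (−0.0031) did change sign. The median was 0.20 over the members and 0.07 over all genes.

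In the TubA-10/GV pair no member was called, beside 1.5% of all genes higher and 11.3% lower. The log2 changes of *Fbxo43* (0.80), *Map2k1* (0.75), *Mapk3* (0.69), *Fbxo5* (0.63) and *Map2k2* (0.34) were positive under all scalings and pseudocounts. *Mos* was at −0.15, which turned to 0.12 with equal *Gapdh*. These 3 comparisons share the GV library, so they are not independent of one another. The median gene among those that reached 1 FPKM everywhere changed from GV by 0.13 for MII, 0.19 for TubA-20 and 0.14 for TubA-10, and each change above is smaller by that amount relative to the median gene.

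**Figure D2:**
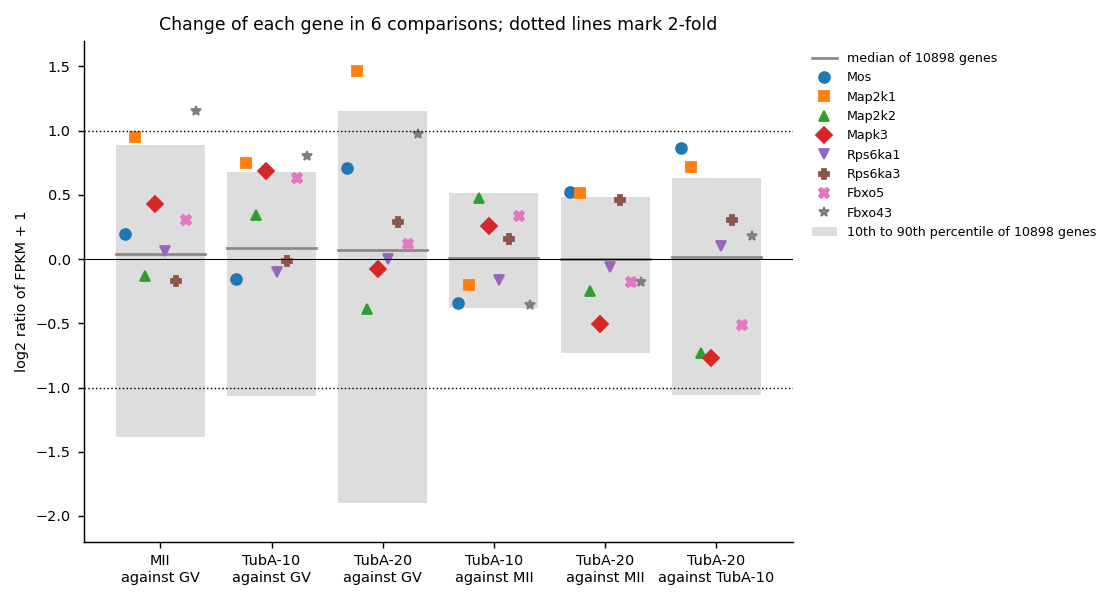
Log2 ratio of FPKM + 1 (vertical axis) of the 8 genes, 1 symbol each, in 6 comparisons between libraries. Grey bars span the 10th to the 90th percentile of 10898 genes, grey lines their median and dotted lines 2-fold. *Fbxo43* in MII against GV (1.15) and *Map2k1* in TubA-20 against GV (1.46) are the only symbols beyond a dotted line.

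The libraries cultured for the same time were then compared with each other, to ask how each dose differed from maturation without drug. Meiotic stage may differ in these comparisons as well as drug. None of the 8 genes passed 2-fold in the TubA-10/MII pair, where 1.04% of all genes were higher and 0.257% lower. None passed it in the TubA-20/MII pair either, where 0.661% were higher and 4.92% lower. The changes were of opposite sign between the doses for 5 of the 8 genes. The share of all genes with opposite signs was not counted, so this number is a description. Of all genes, 51.3% were above 0 in the TubA-10/MII pair and 49.8% in the TubA-20/MII pair. *Mos* was at −0.34 for TubA-10 and 0.52 for TubA-20 against MII, and *Map2k1* was at −0.20 and 0.51. In the other direction, *Map2k2* was at 0.48 for TubA-10 and −0.25 for TubA-20, *Mapk3* at 0.26 and −0.51, and *Fbxo5* at 0.33 and −0.18.

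*Fbxo43* was below MII at both doses (−0.35 and −0.18), as was *Rps6ka1* (−0.16 and −0.06), and *Rps6ka3* was above it at both (0.16 and 0.46). All 16 of these changes kept their sign under the 4 scalings and the 2 other pseudocounts. The comparisons share the MII library, and none of the differences could be set against replicate spread. Across all genes, the 10th and 90th percentiles of the change were −0.38 and 0.52 for TubA-10 against MII, and −0.73 and 0.48 for TubA-20 against MII. *Mos* and *Map2k1* in TubA-20 lay above the 90th percentile, and no member lay below the 10th in either comparison.

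**Figure D3:**
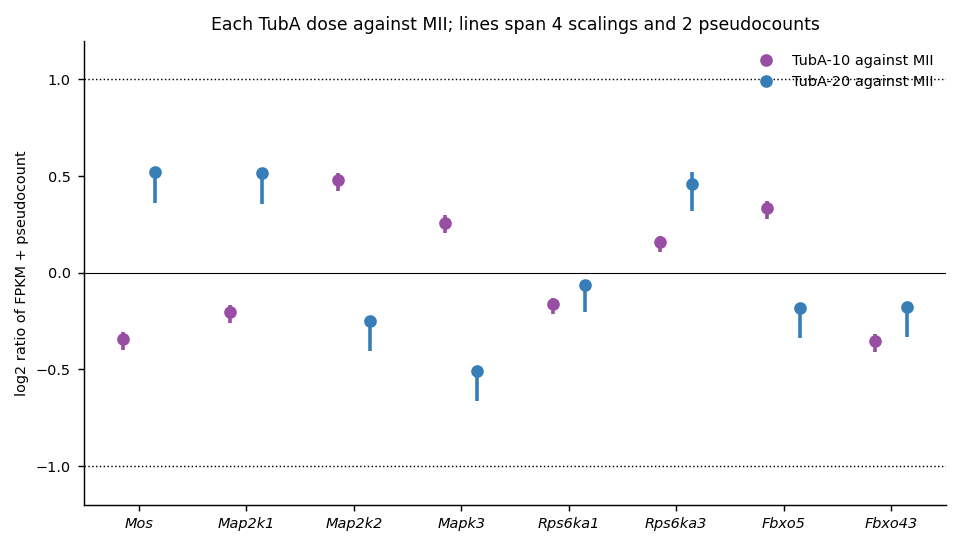
Log2 ratio of each TubA library to the MII library (vertical axis) for the 8 genes. Points are the values as deposited with a pseudocount of 1, lines span the values under 4 scalings and 2 other pseudocounts, and dotted lines mark 2-fold. *Mos* and *Map2k1* lie below 0 for TubA-10 and above 0 for TubA-20, and *Map2k2*, *Mapk3* and *Fbxo5* show the reverse order.

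Between the doses directly, TubA-20 was higher than TubA-10 for *Mos* (0.86) and *Map2k1* (0.72) and lower for *Mapk3* (−0.77), *Map2k2* (−0.73) and *Fbxo5* (−0.51). None passed 2-fold, beside 1.33% of all genes higher and 11.1% lower. *Rps6ka3* was at 0.30. *Fbxo43* (0.18) and *Rps6ka1* (0.10) changed sign under another scaling.

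A ratio of 2 genes within a library does not depend on how the libraries are scaled. Members of the same family were therefore set against each other, as were *Mos* and *Mapk3*, which belong to 1 cascade. *Map2k1* exceeded *Map2k2* 1.97-fold in GV, 2.61-fold in TubA-10, 4.22-fold in MII and 7.23-fold in TubA-20. The balance between the MEK genes thus differed 3.66-fold between the extreme libraries. *Fbxo5* exceeded *Fbxo43* 5.94-fold in GV and 5.19-fold in TubA-10, but 3.20-fold in MII and 3.19-fold in TubA-20. For this ratio the TubA-10 library was near GV and the TubA-20 library near MII. *Rps6ka1* and *Rps6ka3* stayed within a ratio of 0.955 (TubA-20) to 1.44 (MII). The ratio of *Mos* to *Mapk3* was 4.88 for GV, 4.14 for MII, 8.47 for TubA-20 and 2.72 for TubA-10. Outside the members, the ratio of *Fbxw11* to *Btrc*, described below, had a wider range than the MEK genes. It differed 8.66-fold, from 0.0954 for GV to 0.826 for TubA-20.

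**Figure D4:**
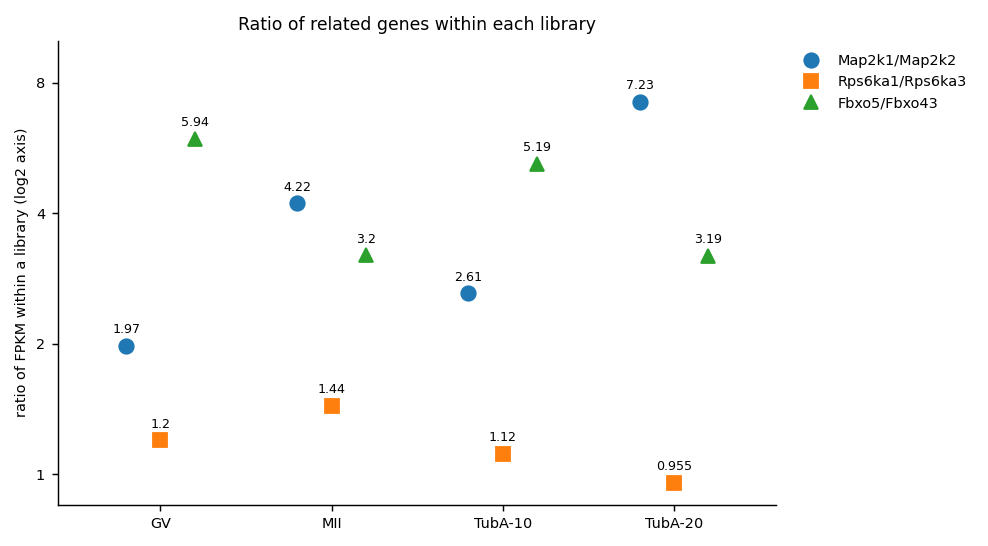
Ratio of the FPKM of 2 related genes within each library (vertical axis, log2 scale), 1 symbol for each of 3 gene pairs, with values printed. *Map2k1*/*Map2k2* runs from 1.97 for GV to 7.23 for TubA-20, and *Fbxo5*/*Fbxo43* is at 3.20 for MII and 3.19 for TubA-20, against 5.94 for GV and 5.19 for TubA-10.

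The genes whose profile over the 4 libraries was most like that of *Mos* were *Ccdc82*, *Ybx1* and *Cdca3*, at distances of 0.06, 0.06 and 0.07. The distance is Euclidean, between profiles of log2 of FPKM + 1 that were each centred on their own mean, and was computed over 7896 genes with at least 5 FPKM in any library. *Ybx1*, which encodes an mRNA-binding Y-box protein, was at 249 FPKM for GV, 302 for MII, 419 for TubA-20 and 233 for TubA-10. The nearest to *Fbxo43* were *Tm2d1* (0.02), *Spdl1* (0.04) and *Tnrc6b* (0.05). *Spdl1*, which recruits dynein to kinetochores, was at 78.7, 172, 149 and 134 FPKM in the same order. Within a distance of 0.25 there were 134 genes for *Mos* and 351 for *Fbxo43*, so with 4 points these profiles were not rare.

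Around the 8 members, 34 further genes of the pathway were taken from a list made by role, of which 28 had at least 1 FPKM in any library. *Rps6ka2*, *Dusp4*, *Dusp5*, *Dusp6*, *Dusp9* and *Camk2d* did not. In MII/GV 1 of the 28 was higher past 2-fold and 4 lower, which is 3.57% and 14.3% beside 6.14% and 16.8% of all genes, with a median of 0.31 against 0.04. In TubA-20/GV 6 were higher and 7 lower, or 21.4% and 25% beside 15.3% and 23.6%, with a median of 0.35 against 0.07. In TubA-10/GV 0 were higher and 2 lower, or 7.14% lower beside 11.3%, with a median of 0.20 against 0.08. In TubA-20/MII 0 were higher and 2 lower, or 7.14% lower beside 4.92%, with a median of 0.03 against −0.0013. In TubA-10/MII 0 of the 28 passed 2-fold, beside 1.04% of all genes higher and 0.257% lower, with a median of −0.0039 against 0.01. In TubA-20 against TubA-10 0 were higher and 6 lower, or 21.4% lower beside 11.1%, with a median of 0.06 against 0.01. The list as a whole was not tested.

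*Ksr1*, a scaffold that holds the kinases of the cascade together, fell from 32.9 FPKM for GV to 8.46 for MII, 3.96 for TubA-20 and 9.38 for TubA-10. Its changes from GV were −1.84, −2.78 and −1.71 in that order. *Rps6ka6*, a further RSK gene, was higher in MII (1.02) and in TubA-20 (1.39) than in GV, although its highest level was 16.0 FPKM.

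The phosphatase genes *Dusp1* and *Dusp7*, whose products dephosphorylate MAP kinases, were both higher in TubA-20 than in GV, at 1.29 and 1.32. In MII against GV they were at 0.70 and 0.98, and in TubA-20 against MII at 0.59 and 0.34. *Dusp7* was above *Mapk3* in TubA-20 (283 FPKM) and in MII (223 against 175 FPKM), but below it in GV and TubA-10. The genes for the spindle proteins that ERK phosphorylates moved apart. *Mapk1ip1* (MISS) fell from 124 FPKM for GV to 43.0 for MII and 26.1 for TubA-20, while *Cdk2ap2* (DOC1R) went from 472 to 632 and 1155. *Cpeb1*, whose product binds the CPE of stored mRNAs, was at 185 FPKM for GV, 127 for MII, 83.8 for TubA-20 and 173 for TubA-10. It was lower past 2-fold in TubA-20 against GV (−1.13) and against TubA-10 (−1.03).

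The genes that mark the Emi proteins for destruction did not share a direction. *Plk1*, the kinase that primes both Emi proteins for their ubiquitin ligase, lay between 126 and 169 FPKM in all libraries. Of the genes for the ligase's substrate receptor, *Btrc* fell from 35.1 FPKM for GV to 13.8 for MII and 7.71 for TubA-20, with changes of −1.29 and −2.05, while *Fbxw11* was at 3.34, 5.06 and 6.37 FPKM. *Skp1a*, the adaptor of the ligase, was at 919 FPKM for GV, 798 for MII, 386 for TubA-20 and 1068 for TubA-10, and it was lower past 2-fold in TubA-20 against MII (−1.05). *Cul1*, the scaffold, was higher past 2-fold in TubA-20/GV (1.12) and was at 0.81 in MII/GV. *Camk2g*, the calcium-dependent kinase that sets off the loss of EMI2 at fertilisation, lay between 26.6 and 32.9 FPKM. *Ppp3ca*, a subunit of calcineurin, was at 2.55 FPKM for GV, 4.57 for MII (0.65) and 6.41 for TubA-20 (1.06).

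Of the PP2A subunits of the B56 family, which protect EMI2, *Ppp2r5d* was lower than in GV in both MII (−1.16) and TubA-20 (−2.07), and the other 4 genes of the family were above GV in both libraries as deposited with no change past 2-fold. For the activators of the anaphase-promoting complex, *Fzr1* (CDH1) was at 63.6 FPKM for GV, 50.3 for MII, 23.1 for TubA-20 and 70.2 for TubA-10. It was lower past 2-fold in TubA-20 against each of the other libraries, at −1.42 against GV, −1.09 against MII and −1.56 against TubA-10. *Cdc20* was at 78.9, 122, 137 and 79.8 FPKM for GV, MII, TubA-20 and TubA-10, with no change past 2-fold.

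**Figure D5:**
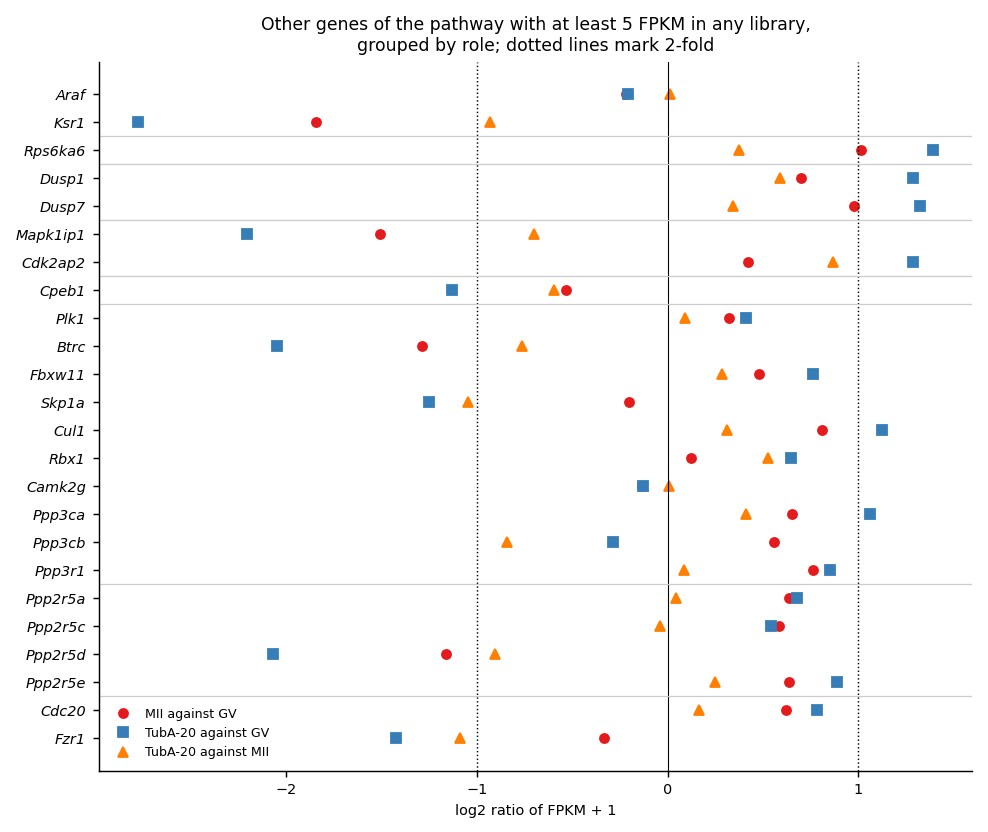
Log2 ratio of FPKM + 1 (horizontal axis) of the 24 further pathway genes with at least 5 FPKM in any library, in 3 comparisons shown by symbol. Grey lines separate the roles in the order of the text, and dotted lines mark 2-fold. *Ksr1*, *Mapk1ip1*, *Cpeb1*, *Btrc*, *Skp1a*, *Ppp2r5d* and *Fzr1* lie left of the lower line in TubA-20 against GV, and *Skp1a* and *Fzr1* also in TubA-20 against MII.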

How the data were processed

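The authors deposited 1 table of FPKM values with 4 columns, 1 library per condition. According to the methods of the study and the submitters' processing notes, reads from oligo(dT)-selected, strand-specific libraries were aligned to mm10 (STAR 2.5.0 is named) and quantified with cufflinks (Cuffdiff 2.2.1 is named). The files used hold no read counts, so counting error is not given per value. Steps among the lowest FPKM held too few genes (6.82 to 26.9%) to give the relative depth of the libraries, and no order of depth is drawn from them. The paper reports more sequenced reads for MII and TubA-10 than for GV and TubA-20. FPKM summed to between 568331 and 627340 per library.

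Ensembl identifiers were joined to symbols for 21794 of 21959 entries, and entries with the same symbol were added. Columns were mapped by the sample descriptions. Log2 ratios of FPKM + 1 were computed with a 2-fold threshold over genes with at least 1 FPKM in any library, since no test can be made with 1 library per group. The members, the pathway list and the gene pairs were chosen with earlier results of these data known. RNA extraction is given as TRIzol by the labels and as a PicoPure kit by the methods. The 8 members are all named, as are the genes of the pathway list past 2-fold in MII/GV, TubA-20/GV or TubA-20/MII with at least 5 FPKM in any library, and the 3 nearest profiles. Some genes of that list are not reported here and were left out of its counts. Other genes are named to complete a group and were chosen after their values were seen. Gene models came from GENCODE M21 (GRCm38), where *Map2k2* and *Fbxo43* have a later version than in the table. Alternatives were pseudocounts of 0.1 and 0.01, 4 scalings, minimum values of 5 FPKM or none, and a 1.5-fold threshold, with a 3-fold threshold added after the data were seen. The calculation of the calls was tested on simulated data with an assumed noise. That test gives no information on the spread between replicates of these libraries. Python 3.11.15, numpy 2.4.6, pandas 2.3.3 and matplotlib 3.10.9 were used.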

Additional observations from a re-analysis of the deposited data

Results flagged for a closer look

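For 5 members the change against MII had opposite signs at the doses of TubA, with the values as deposited and under each scaling and pseudocount tried. *Mos* was at −0.34 in TubA-10 and 0.52 in TubA-20, *Map2k1* at −0.20 and 0.51, *Map2k2* at 0.48 and −0.25, *Mapk3* at 0.26 and −0.51, and *Fbxo5* at 0.33 and −0.18. There was 1 library per dose and none of these changes passed 2-fold, so the difference between the doses was not tested. The share of all genes with opposite signs was not counted, so it is not known whether 5 members is unusual. The TubA-20 library also had the fewest genes listed above 0, 14434 against 15281 to 15440. The paper reports fewer sequenced reads for it than for MII and TubA-10, but more than for GV. The part of the gene number and of the read number in the result was not tested.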

How the results depend on the processing

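Of 48 log2 changes (8 members in 6 comparisons), 38 kept their sign under all 4 scalings and both other pseudocounts. The others lay between −0.17 and 0.18 as deposited, and equal *Gapdh* turned 8 of them. In MII/GV the 1 member called higher became 2 with equal FPKM sums, equal *Gapdh* or a 1.5-fold threshold, the added gene being *Map2k1*, and 0 with a 3-fold threshold. Of all genes, 10.3%, 13.7%, 24.1% and 0.303% were higher under these settings in that order. In TubA-20/GV the 1 became 2 with either pseudocount, with equal upper quartiles or with equal *Gapdh*, through *Fbxo43*, 3 with a 1.5-fold threshold and 0 with a 3-fold threshold. Of all genes, 20.3% were higher with a pseudocount of 0.1, 21% with 0.01, 16.3% with equal upper quartiles and 17.6% with equal *Gapdh*. With the 1.5-fold and 3-fold thresholds 32.3% and 1.06% were higher. In TubA-10/GV the 0 became 2 with equal *Gapdh* (*Map2k1* and *Fbxo43*) and 4 with a 1.5-fold threshold, beside 6.62% and 15.5% of all genes. In TubA-20 against TubA-10 the 0 higher and 0 lower became 2 and 2 with a 1.5-fold threshold, beside 12.3% and 22.3% of all genes. The other alternatives left the counts of members called as they were. No filter on low values and a minimum of 5 FPKM changed no value, since all members exceeded it. With equal *Gapdh* the median change from GV over genes with at least 1 FPKM in each library was 0.32 for MII, 0.25 for TubA-20 and 0.37 for TubA-10. With no replicate, no library could be left out within a group. No paired analysis was possible because there was 1 library per group.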
